A study of Mus musculus with 17 samples.

Results

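The iron and haem recycling genes described here are 10 genes fixed by name: *Spic*, *Hmox1*, *Slc40a1*, *Cd163*, *Fth1*, *Ftl1*, *Tfrc*, *Slc11a1*, *Blvrb* and *Slc48a1*. All 10 of 10 had a row among the 25124 genes of each of 3 deposited tables, and all 10 passed the filter on low values in each table. They were followed in RNA-seq of sorted mouse Kupffer cells (KCs), which are macrophages that reside in the sinusoids of the liver. The Tim4+CD206+ KCs and the Tim4+CD206hi KCs each came from 3 untreated, tumour-free samples and from 3 samples taken 2 weeks after KPC pancreatic cancer cells were injected through the portal vein. The third set held KCs of 3 *Id3f/f* mice, in which both *Id3* alleles are flanked by loxP sites, and of 2 *Clec4fCreId3f/f* littermates. None of these 5 mice carried a tumour. *Clec4f* is a KC gene, and Cre driven from it acts in KCs rather than in the whole mouse. The ages and sexes of these mice were not given in the labels, which also did not say whether the tumour-set replicates were separate animals, so that p-values there measure the spread between these samples, which may be technical.

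Macrophages of the liver and spleen take up aged red blood cells and return their iron to the blood. Haem leaves the phagolysosome through the transporter HRG1 (*Slc48a1*), and haem oxygenase 1 (*Hmox1*) opens it into biliverdin, carbon monoxide and iron. Biliverdin is then reduced to bilirubin. *Blvrb* encodes biliverdin reductase B. CD163 (*Cd163*) clears haemoglobin bound to haptoglobin. SPI-C (*Spic*) is a transcription factor needed for the macrophages that recycle red cell iron. The iron is stored in ferritin, built of heavy (*Fth1*) and light (*Ftl1*) chains, or leaves through ferroportin (*Slc40a1*), while transferrin receptor 1 (*Tfrc*) imports iron from plasma and NRAMP1 (*Slc11a1*) moves it out of the phagosome. Iron regulatory proteins bind a hairpin called the iron responsive element: in the 5′ untranslated region it blocks translation when iron is scarce, and in the 3′ untranslated region of the *Tfrc* mRNA it protects that mRNA from decay.

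The hairpins are printed because the members that passed the test after *Id3* deletion all carry one. *Fth1* carries one too and did not pass (limma adjusted p = 0.0893). The part of the hairpin in any change was not tested. A search of GRCm38 transcripts (GENCODE M21) used windows of 29 bases with a bulged C, 5 stem pairs that may include G with T, and a loop of CAGTGN. The hairpin was found in 4 of the 10 members, all protein-coding genes: *Slc40a1* (chr1:45908068-45926523), *Ftl1* (chr7:45457944-45459884), *Tfrc* (chr16:32608920-32632794) and *Fth1* (chr19:9980598-9985098). The capitals mark the bulged C and the loop, and each sequence is given 5′ to 3′ on the strand of its gene.
*Fth1*, 5′ untranslated region, chr19:9982732-9982760, plus strand: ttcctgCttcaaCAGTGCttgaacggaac
*Ftl1*, 5′ untranslated region, chr7:45459779-45459807, minus strand: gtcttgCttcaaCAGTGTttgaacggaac
*Slc40a1*, 5′ untranslated region, chr1:45925465-45925493, minus strand: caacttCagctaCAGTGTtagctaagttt
*Tfrc*, 3′ untranslated region, chr16:32631219-32631247, plus strand: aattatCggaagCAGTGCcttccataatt
*Tfrc*, 3′ untranslated region, chr16:32631598-32631626, plus strand: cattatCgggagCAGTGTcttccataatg
*Tfrc*, 3′ untranslated region, chr16:32631663-32631691, plus strand: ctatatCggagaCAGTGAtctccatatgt
*Tfrc*, 3′ untranslated region, chr16:32631710-32631738, plus strand: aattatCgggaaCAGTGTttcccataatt
The same letters and pairs were found in the 5′ untranslated region of 28 of 20954 genes (0.134%) and in the 3′ untranslated region of 141 of 21038 genes (0.67%). The other 6 members held no such window. A match shows the letters and pairs only, not binding of a protein.

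The deposited values have the features of regularized log2 values made separately for each table, so that no test was run between tables. A difference of 1 is a doubling. The numbers of reads are not given in these values, and the depth of each sample is therefore unknown. The 11 KC markers checked were all measured in every table, with a summed log2 level of 19.42 to 20.84. Of these, *Timd4* and *Adgre1* fell with tumour in Tim4+CD206+ KCs, by 0.75 and 0.93 on the log2 scale, and the median log2 fold change of the 11 was −0.38 there and −0.36 in Tim4+CD206hi KCs, where none was called. After *Id3* deletion *Clec4f* (−1.52), *Folr2* (−0.55) and *Clec1b* (−0.32) fell and *Adgre1* (0.79) and *Cd5l* (0.25) rose. Epithelial tumour cell markers rose with tumour in both subsets, from a summed log2 level of 10.91 to 11.86 to one of 15.39 to 15.60 in Tim4+CD206+ KCs, and from 11.02 to 11.43 to one of 15.80 to 15.90 in Tim4+CD206hi KCs. Without tumour-free replicate 2 the genes called went from 469 to 1032 in Tim4+CD206+ KCs and from 1053 to 3633 in Tim4+CD206hi KCs, and member results that changed without it are given both ways. In bulk samples fewer cells of a type and less RNA per cell cannot be told apart.

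Ferritin light chain mRNA was the most abundant member in every group. To compare genes, the log2 values were reduced by the log2 length of the longest coding transcript in kb. On this per kb scale *Ftl1* ranked 1 of 13052 genes in Tim4+CD206+ KCs, 1 of 14332 in Tim4+CD206hi KCs and 2 of 12651 in the *Id3* set, with mean levels of 19.95, 18.84 and 18.86. Over all samples of a set *Fth1* came next, at 16.65, 15.74 and 16.76, but in tumour-free Tim4+CD206hi KCs alone it was at 15.11 ± 1.22 (SD, n = 3) and *Slc40a1* at 15.61 ± 0.42, closer than their spread. *Hmox1* and *Slc40a1* were at 16.02 and 14.85 in Tim4+CD206+ KCs, 14.92 and 15.62 in Tim4+CD206hi KCs and 15.34 and 14.95 in the *Id3* set. Their order turned over between the samples of the 2 subsets. Sinusoidal endothelial markers had a summed log2 level of 13.27 to 14.80 in Tim4+CD206+ and of 17.06 to 18.35 in Tim4+CD206hi KCs. The part of endothelial RNA in the level of any member was not tested. *Blvrb* was at 14.96, 13.28 and 13.85, in Tim4+CD206+ KCs just above *Slc40a1*. *Slc11a1* was at 14.33 in Tim4+CD206+ KCs and at 13.56, above *Blvrb*, in Tim4+CD206hi KCs, and at least 98.5% of ranked genes were lower than *Blvrb* and than *Slc11a1* in every set.

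Lower in the order came *Slc48a1*, with mean per kb log2 levels of 12.03, 11.55 and 12.26 in the same order of sets, *Cd163*, with 10.97, 12.18 and 9.46, and *Spic*, with 10.86, 11.20 and 12.01. *Tfrc* was the least abundant member in each set, at 6.76, 8.54 and 8.68, where 50.2%, 64.6% and 74.1% of ranked genes were lower. Neighbours in the order were often closer than the spread of their values. In tumour-free Tim4+CD206+ KCs the per kb levels were 16.32 ± 0.65 (SD, n = 3) for *Fth1* and 16.00 ± 0.39 for *Hmox1*, 15.08 ± 0.66 for *Slc40a1* and 15.05 ± 0.43 for *Blvrb*, and 10.99 ± 0.26 for *Spic* and 10.98 ± 0.50 for *Cd163*. None of these 3 pairs differed beyond its spread.

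**Figure D1:**
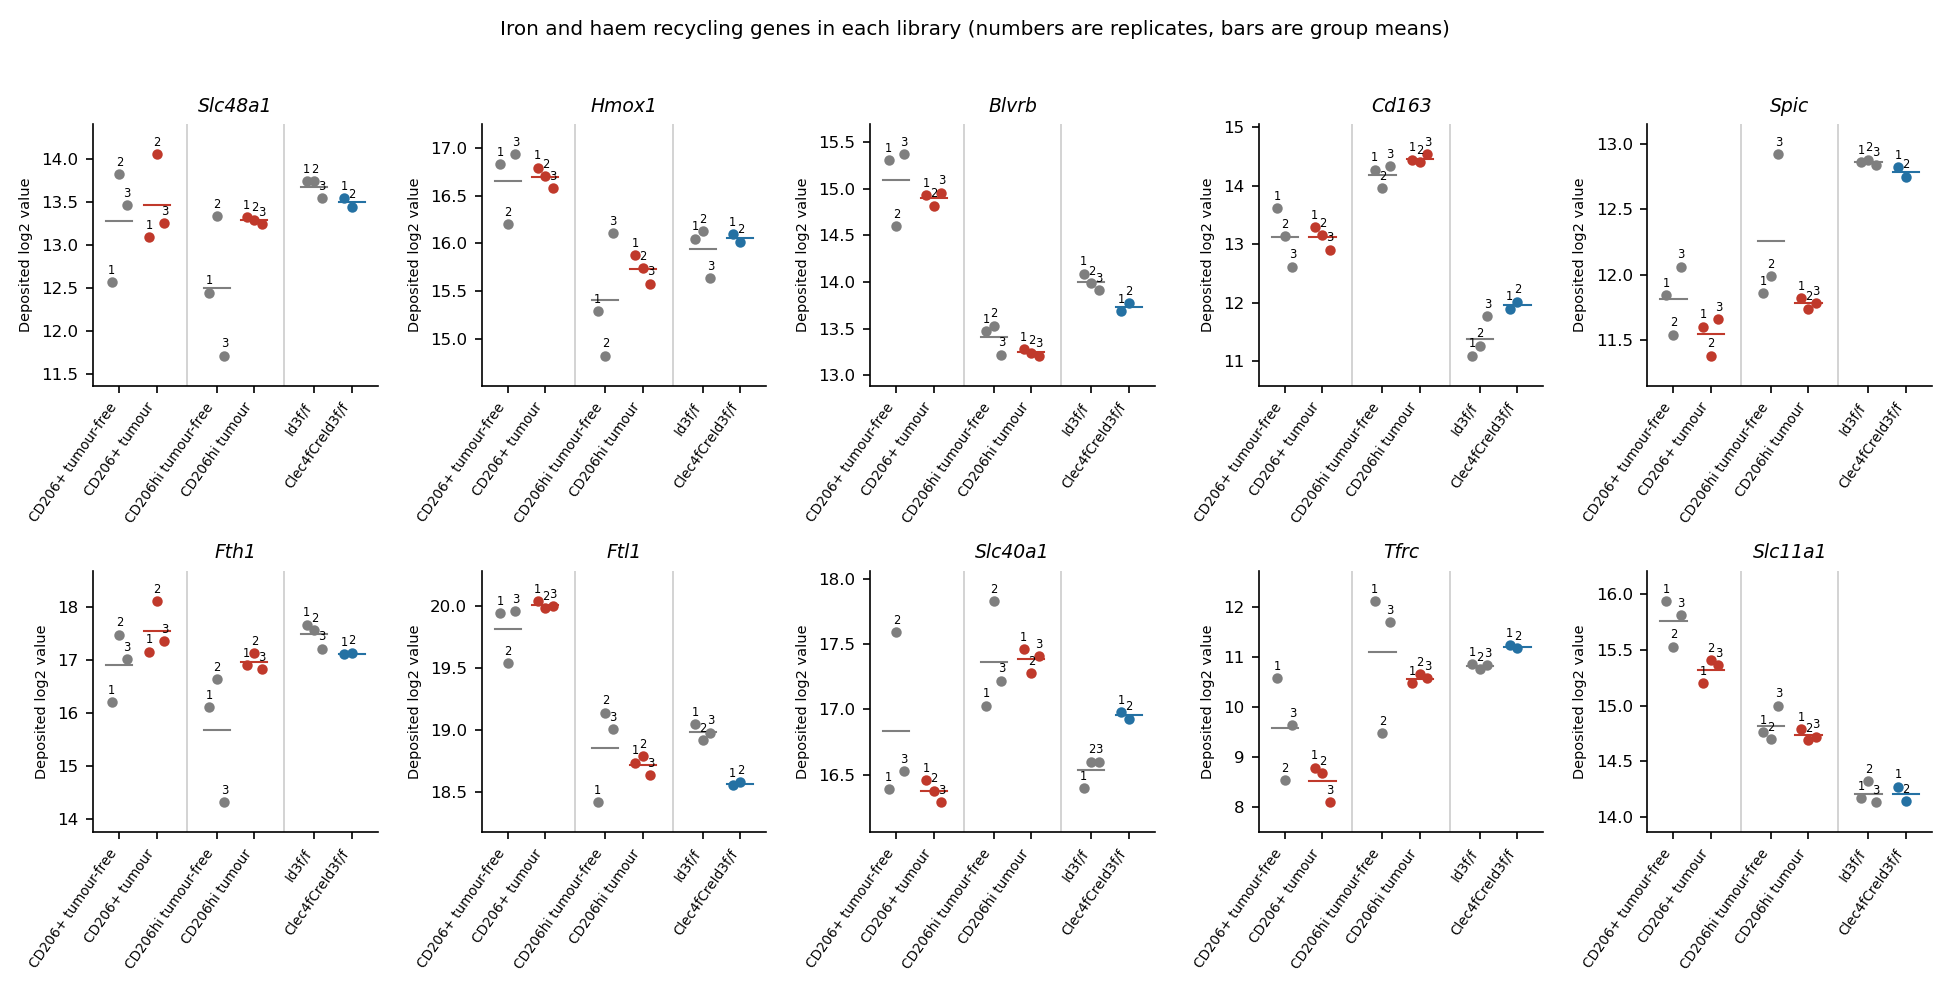
Deposited regularized log2 value (y axis) of each of the 10 genes in each library (points, with the replicate number above) by group (x axis), with bars at group means. Grey vertical lines part the 3 tables, which were normalized separately. In the *Id3* set, the 2 *Clec4fCreId3f/f* libraries lie above all 3 *Id3f/f* libraries for *Slc40a1* and *Tfrc* and below them for *Ftl1*.

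In Tim4+CD206+ KCs none of the 10 genes passed the test between tumour and tumour-free samples (limma, adjusted p under 0.05). The background in this comparison was 3.54% of 13233 genes, 2.55% higher and 0.998% lower. At an unadjusted p under 0.05 there was 1 member, *Slc11a1*, against 17.2% of all genes tested. Tumour and tumour-free values were fully apart for 2 members, lower for *Slc11a1* and higher for *Ftl1*, against 23.4% of all genes (12.9% higher and 10.5% lower). With samples of the same number taken as a block, a pairing that no label gives, the count of genes called went from 469 to 1026. The members called stayed at 0.

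For *Spic* and the genes of haem uptake and breakdown the differences in Tim4+CD206+ KCs had 95% intervals that included both signs. The log2 value of *Slc48a1* was 12.56, 13.82 and 13.46 in tumour-free replicates 1, 2 and 3 and 13.09, 14.05 and 13.25 in tumour samples. *Hmox1* was at 16.83, 16.20 and 16.93 without and at 16.79, 16.70 and 16.58 with tumour. Both pairs of groups overlapped. *Spic* was at 11.84, 11.54 and 12.06 without and at 11.60, 11.38 and 11.66 with tumour, again with overlap. The log2 fold changes were 0.18 (95% interval −0.64 to 1.01) for *Slc48a1*, 0.03 (−0.47 to 0.54) for *Hmox1*, −0.19 (−0.69 to 0.32) for *Blvrb*, −0.01 (−0.59 to 0.57) for *Cd163* and −0.26 (−0.69 to 0.16) for *Spic*.

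Ferritin heavy chain mRNA in Tim4+CD206+ KCs was at 16.20, 17.48 and 17.02 in tumour-free and at 17.16, 18.12 and 17.36 in tumour samples. Each tumour value was above that of the tumour-free sample with the same number, and the groups overlapped. The log2 fold change of *Fth1* was 0.65 (standard error, SE, 0.36, limma adjusted p = 0.425, and 0.107 with the block). The light chain *Ftl1* was at 19.94, 19.54 and 19.96 without and at 20.04, 19.98 and 20.00 with tumour, a log2 fold change of 0.19 (limma adjusted p = 0.716), and its groups were separated by less than 0.1.

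The 3 iron transporters did not pass the test in Tim4+CD206+ KCs. *Tfrc*, the importer, was at 10.58, 8.53 and 9.63 without and at 8.78, 8.67 and 8.09 with tumour, and tumour-free replicate 2 was the only one of its group inside the tumour range. The log2 fold change was −1.07 (SE 0.47, limma adjusted p = 0.299, and 0.0765 with the block). *Slc11a1*, the phagosomal transporter, was at 15.94, 15.53 and 15.81 without and at 15.20, 15.41 and 15.36 with tumour, with no overlap between the groups and a log2 fold change of −0.44 (SE 0.17, limma adjusted p = 0.23). *Slc40a1*, the exporter, was at 16.39, 17.59 and 16.53 without and at 16.46, 16.38 and 16.29 with tumour. Its high tumour-free value was again that of replicate 2, and its log2 fold change was −0.46 (SE 0.30, limma adjusted p = 0.506) and −0.09 without that library.

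Without tumour-free replicate 2, 3 members passed the test in Tim4+CD206+ KCs, all lower with tumour, among 1032 genes called. With all libraries 469 of 13233 tested genes were called, 337 higher and 132 lower. Without replicate 2 more of the called genes were lower than higher, as the 3 members were. Whether members were called more often than other genes in this fit was not tested. *Tfrc* fell by 1.59 (limma adjusted p = 0.0294), *Slc11a1* fell by 0.55 (adjusted p = 0.0247) and *Blvrb* fell by 0.43 (adjusted p = 0.0388) on the log2 scale. *Blvrb* was at 15.31, 14.60 and 15.37 without and at 14.93, 14.82 and 14.96 with tumour, so that replicate 2 alone of the tumour-free values was below those of the tumour samples. Leaving out any of the other 5 libraries gave no member past the threshold. Without tumour-free replicate 1 the log2 fold change was −0.57 (adjusted p = 0.602) for *Tfrc*, −0.35 (0.451) for *Slc11a1* and −0.08 (0.927) for *Blvrb*, and without tumour-free replicate 3 that of *Blvrb* was −0.05 (0.964). The summed log2 level of monocyte markers was 15.19, 13.82 and 14.71 in tumour-free replicates 1, 2 and 3 and 15.37 to 15.59 in tumour samples, lowest in replicate 2. The summed log2 level of erythroid markers, mostly globin mRNA, ranged from 15.99 to 16.85 in tumour-free and from 16.29 to 18.23 in tumour samples, and the part of either in these values was not tested.

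In Tim4+CD206hi KCs none of the 10 genes passed the test either (limma, background 7.23% of 14561 genes, 5.21% higher and 2.03% lower). None reached an unadjusted p under 0.05, against 21.1% of all genes tested. Tumour and tumour-free values were fully apart for 3 members, higher for *Fth1* and *Cd163* and lower for *Spic*, against 30.7% of all genes (15.6% higher and 15.2% lower). Median centring of the libraries lowered the log2 fold changes in this subset by 0.16 at the median of all genes, and the share of called genes that were higher was 72%, or 56.2% with quantile normalization and 56.6% with the trends of GC content and length removed. With median centring the log2 fold changes were 1.11 for *Fth1*, 0.63 for *Slc48a1*, 0.11 for *Cd163*, −0.64 for *Spic* and, with the sign turned, −0.14 for *Slc40a1*, none of them called.

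The heavy chain of ferritin and the haem transporter HRG1 had higher means in tumour samples of Tim4+CD206hi KCs, without passing the test. *Fth1* was at 16.11, 16.64 and 14.31 in tumour-free replicates 1, 2 and 3 and at 16.91, 17.13 and 16.83 in tumour samples. The 3 tumour values lay within 0.3 of each other and above every tumour-free value, of which that of replicate 3 was far below the rest. The log2 fold change was 1.27 (SE 0.55, limma adjusted p = 0.246), and it was 0.58 (adjusted p = 0.137) without tumour-free replicate 3 and 1.75 (adjusted p = 0.042) without tumour-free replicate 2. *Slc48a1* was at 12.44, 13.33 and 11.71 without and at 13.32, 13.29 and 13.24 with tumour, so that tumour-free replicate 2 alone was as high as the tumour samples. Its log2 fold change was 0.79 (SE 0.38, limma adjusted p = 0.284), or 1.21 (adjusted p = 0.0116) without tumour-free replicate 2 and 0.39 (adjusted p = 0.412) without tumour-free replicate 3.

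*Spic*, the transcription factor of red cell recycling, was at 11.86, 11.99 and 12.92 in tumour-free and at 11.82, 11.74 and 11.78 in tumour samples of Tim4+CD206hi KCs. The groups were apart by less than 0.1, and the log2 fold change of −0.47 (limma adjusted p = 0.374) was −0.14 without tumour-free replicate 3. *Cd163* was at 14.28, 13.96 and 14.34 without and at 14.45, 14.41 and 14.54 with tumour, a log2 fold change of 0.27 (95% interval −0.11 to 0.66, limma adjusted p = 0.377). *Hmox1* was at 15.29, 14.83 and 16.11 without and at 15.88, 15.74 and 15.58 with tumour (log2 fold change 0.32, limma adjusted p = 0.578). The log2 fold change of *Blvrb* was −0.16 (95% interval −0.52 to 0.19).

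The importer *Tfrc* varied most among the tumour-free Tim4+CD206hi libraries, at 12.12, 9.47 and 11.69, against 10.47, 10.65 and 10.58 with tumour. The tumour values sat between those of tumour-free replicate 2 and the other two, and the log2 fold change of −0.53 (SE 0.63, limma adjusted p = 0.648) became −1.34 (adjusted p = 0.00372) without tumour-free replicate 2, −0.01 (adjusted p = 0.991) without replicate 1 and −0.23 (adjusted p = 0.879) without replicate 3. *Slc40a1*, the exporter, was at 17.03, 17.83 and 17.22 without and at 17.46, 17.28 and 17.41 with tumour, highest in tumour-free replicate 2. The log2 fold change was 0.02 (95% interval −0.55 to 0.59) for *Slc40a1*, −0.13 (−0.69 to 0.43) for *Ftl1* and −0.09 (−0.45 to 0.27) for *Slc11a1*. Without tumour-free replicate 2 the genes called numbered 3633, against 1053 of 14561 tested genes with all libraries, and more were higher than lower. Among the 3633 were 3 members, *Fth1* and *Slc48a1* higher and *Tfrc* lower. Calls thus became more common among all genes, and whether members were called more often than other genes was not tested.

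Side by side, the log2 fold changes with tumour in Tim4+CD206+ and Tim4+CD206hi KCs were 0.65 and 1.27 for *Fth1*, −1.07 and −0.53 for *Tfrc*, and −0.26 and −0.47 for *Spic*. *Slc40a1*, with −0.46 and 0.02, and *Slc11a1*, with −0.44 and −0.09, were nearer to no difference in Tim4+CD206hi KCs. The difference in response between the subsets was not tested. Neutrophil markers ranged in summed log2 level from 13.59 to 14.33 without and from 15.27 to 15.38 with tumour in Tim4+CD206+ KCs, and from 13.04 to 13.91 and from 14.43 to 15.03 in Tim4+CD206hi KCs. In the same groups hepatocyte markers went from 17.25 to 17.48 down to 16.61 to 16.96, and from 16.66 to 17.04 down to 16.34 to 16.59. Sinusoidal endothelial markers ranged from 17.79 to 18.35 without and from 17.06 to 17.39 with tumour in Tim4+CD206hi KCs. The part of these cells in the members' values was not tested.

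**Figure D2:**
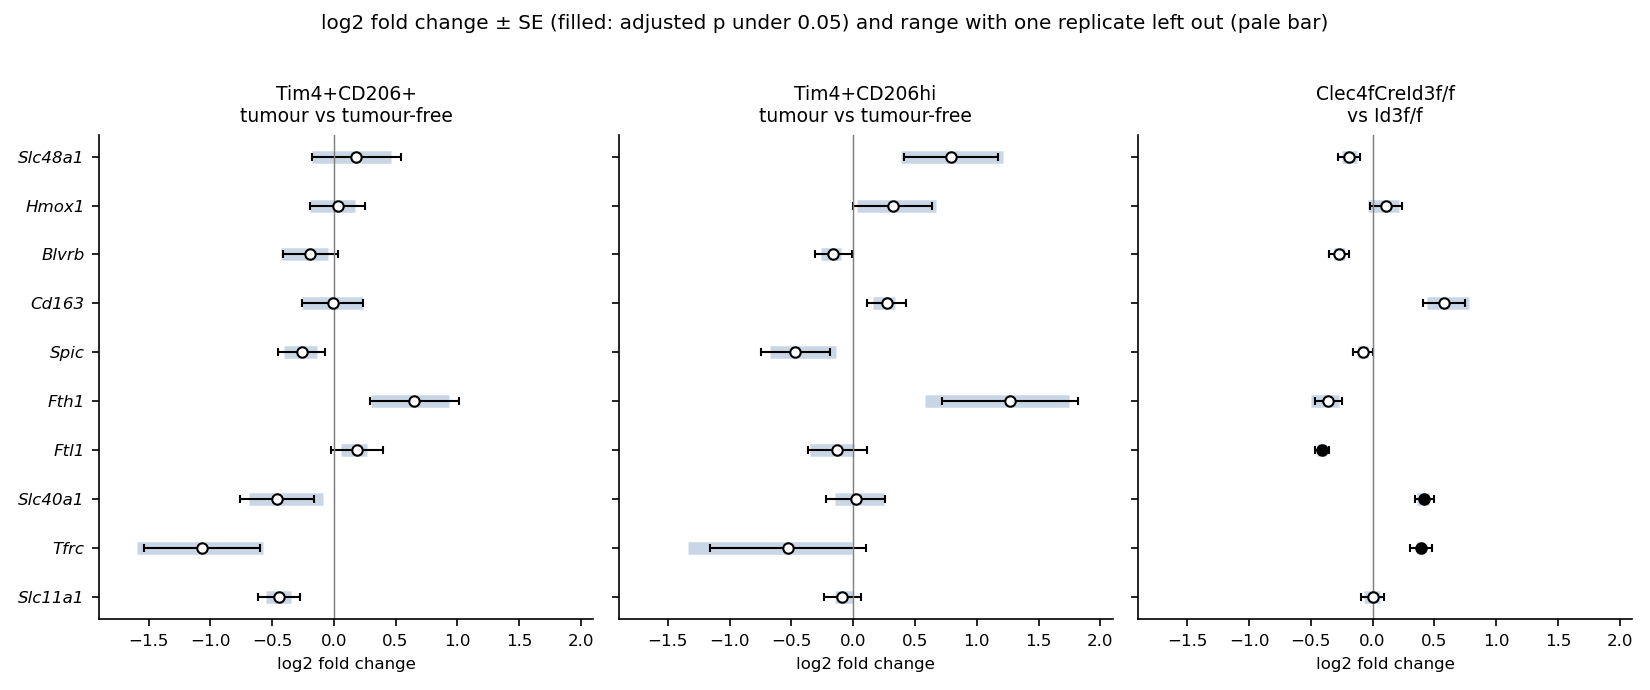
log2 fold change (x axis) of each of the 10 genes (rows) with its standard error in the 3 comparisons, filled where the limma adjusted p is under 0.05. Pale bars span the values with each replicate left out in turn, and they are narrow in the *Id3* set, where *Ftl1*, *Slc40a1* and *Tfrc* are filled.

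Deletion of *Id3* in KCs went with a rise of ferroportin and transferrin receptor mRNA and a fall of ferritin light chain mRNA. The sex-linked genes *Xist* and *Ddx3y* also separated the genotypes, so that deletion and sex cannot be told apart for any gene here. *Id3*, the targeted gene, was at 12.58, 12.46 and 12.82 in *Id3f/f* and at 9.83 and 9.82 in *Clec4fCreId3f/f* KCs, and fell by 2.80 on the log2 scale (SE 0.11, limma adjusted p = 1.4e-06). Of the 10 members, 3 passed the test, 2 higher and 1 lower (limma, background 6.44% of 12833 genes in either direction, 3.08% higher and 3.37% lower). At an unadjusted p under 0.05 there were 6 members, against 23.6% of all genes tested. The values of the genotypes were fully apart for 8 of the 10, 3 higher and 5 lower, against 41.9% of all genes (20.2% higher and 21.7% lower). The members were chosen with earlier results of these data known, so that these counts are no test of the set. With median centring the share of called genes that were higher went from 47.8% to 37.4%, with the same 3 members called.

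The exporter *Slc40a1* was at 16.40, 16.60 and 16.60 in *Id3f/f* replicates 1, 2 and 3 and at 16.98 and 16.93 in *Clec4fCreId3f/f* replicates 1 and 2. It was higher in both deleted samples than in every control, with a log2 fold change of 0.42 (SE 0.08, limma adjusted p = 0.0164), or 1.34-fold. The importer *Tfrc* was at 10.85, 10.75 and 10.84 in *Id3f/f* and at 11.23 and 11.18 in *Clec4fCreId3f/f* KCs. Its values were likewise higher in both deleted samples, with a log2 fold change of 0.39 (SE 0.09, limma adjusted p = 0.031), or 1.31-fold. Without a filter on low values, which raised the number of genes tested, the adjusted p of *Tfrc* was 0.0531.

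Ferritin light chain mRNA fell. *Ftl1* was at 19.05, 18.92 and 18.98 in *Id3f/f* and at 18.56 and 18.58 in *Clec4fCreId3f/f* KCs, and fell by 0.41 on the log2 scale (SE 0.06, limma adjusted p = 0.00551), which is 1.33-fold. With quantile normalization, which gives the same set of values to every library, the log2 fold change of *Ftl1*, the gene ranked 3 of 12833 by mean value, was −0.06 (adjusted p = 0.592). The heavy chain *Fth1* was at 17.67, 17.57 and 17.22 in *Id3f/f* and at 17.11 and 17.14 in *Clec4fCreId3f/f* KCs. Both deleted samples were below every control, *Id3f/f* replicate 3 being the nearest, and the log2 fold change was −0.36 (SE 0.11, limma adjusted p = 0.0893). Ferritin genes have many processed pseudogene copies, so that their read counts depend on how shared reads were assigned, and *Ftl1* overlaps the annotated genes *Gm10252* and *Gm22133*.

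The genes of haem handling did not pass the test after *Id3* deletion with the main filter. *Blvrb* was at 14.09, 13.99 and 13.91 in *Id3f/f* and at 13.69 and 13.77 in *Clec4fCreId3f/f* KCs (log2 fold change −0.27, limma adjusted p = 0.0837). *Slc48a1* was at 13.74, 13.74 and 13.54 against 13.54 and 13.44 (−0.19, limma adjusted p = 0.246). Its annotated span overlaps that of *Hdac7* on the other strand, and whether this affected its read count was not checked. *Cd163* was at 11.10, 11.27 and 11.77 against 11.90 and 12.02 (0.58, limma adjusted p = 0.0708, and 0.045 among genes with a mean of at least log2 of 50, where 4 members were called). In all 3 genes the control nearest to the deleted samples was replicate 3. *Hmox1* (log2 fold change 0.11, 95% interval −0.17 to 0.40), *Spic* (−0.08, −0.25 to 0.10) and *Slc11a1* (−0.00, −0.20 to 0.19) had intervals that held 0.

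The calls after *Id3* deletion depended on single libraries. Without *Id3f/f* replicate 3 there were 7 members called among 1850 genes, against 827 of 12833 tested genes called with all libraries. The members added were *Cd163* (log2 fold change 0.78, limma adjusted p = 0.000141), *Fth1* (−0.50, 6.96e-06), *Blvrb* (−0.31, 0.00766) and *Slc48a1* (−0.25, 0.0242). Without *Id3f/f* replicate 1 or 2, *Slc40a1* and *Ftl1* remained called, while *Tfrc* had adjusted p values of 0.0765 and 0.077. Without *Clec4fCreId3f/f* replicate 1 or 2, which left a single deleted library assumed to vary like the controls, no member was called among 17 and 19 genes. The log2 fold changes kept their sign each time, within 0.36 to 0.46 for *Slc40a1*, 0.36 to 0.42 for *Tfrc* and −0.45 to −0.38 for *Ftl1*.

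Erythroid mRNA differed between the genotypes beside these genes. The summed log2 level of 15 erythroid markers was 17.07, 16.80 and 15.69 in *Id3f/f* and 14.92 and 15.37 in *Clec4fCreId3f/f* KCs, lowest among controls in replicate 3. The globin genes *Hba-a1* (log2 fold change −1.44, limma adjusted p = 0.0384) and *Hbb-bs* (−1.39, 0.0413) were lower, and copies of each share reads. Both calls were lost with no filter, without the variance trend, with quantile normalization and without any library but *Id3f/f* replicate 3 (adjusted p 0.0516 to 0.378), and that of *Hbb-bs* also with GC and length trends removed (0.0531). Of the 11 erythroid markers tested, 6 were called lower, beside 3.37% of all genes. In 10 of the 11 the log2 fold change was negative, and the median was −1.33. *Slc4a1*, the anion exchanger of the red cell membrane, had low values, 5.42 to 5.69, and a log2 fold change of −0.07. Sex-linked genes also separated the genotypes, with *Xist* higher (3.44, limma adjusted p = 5.74e-08) and *Ddx3y* lower (−2.44, 6.45e-07) in *Clec4fCreId3f/f* KCs, so that sex and genotype cannot be told apart in these 5 samples. Monocyte markers had a summed log2 level of 13.65 to 13.92 in *Id3f/f* and of 12.84 and 12.95 in *Clec4fCreId3f/f* KCs, with *Plac8* and *Ms4a4c* called lower of 7 tested. Neutrophil markers were at 11.05 to 11.16 against 10.93 and 10.73. Both sums were lower in each deleted sample than in every control. The part of red cell, monocyte and neutrophil RNA in the members' values was not tested.

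Within a library, the difference between 2 genes does not depend on the scaling of that library. *Fth1* minus *Ftl1*, the heavy against the light ferritin chain per kb, was −4.36, −2.68 and −3.56 log2 units in tumour-free and −3.50, −2.48 and −3.26 in tumour samples of Tim4+CD206+ KCs, a mean difference of 0.45 (exact two-sided permutation p = 0.4). It was higher with tumour in all 3 same-numbered pairs (exact two-sided permutation of signs p = 0.25, the smallest that 3 pairs allow). Without tumour-free replicate 1 the difference was 0.04, without tumour replicate 2 it was 0.15, and without tumour-free replicate 2 it was 0.88. In Tim4+CD206hi KCs it was −2.94, −3.12 and −5.32 without and −2.46, −2.29 and −2.44 with tumour, a mean difference of 1.40 (exact two-sided permutation p = 0.1, the smallest that 3 against 3 allows). All 3 tumour samples lay above the tumour-free ones, and without tumour-free replicate 3 the difference was 0.63. In the *Id3* set it was −2.01, −1.98 and −2.39 in *Id3f/f* and −2.08 and −2.07 in *Clec4fCreId3f/f* KCs, a mean difference of 0.05 (exact two-sided permutation p = 1, smallest possible 0.2).

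*Slc40a1* minus *Tfrc*, export against import per kb, was 6.35, 9.60 and 7.43 in tumour-free and 8.22, 8.24 and 8.74 in tumour samples of Tim4+CD206+ KCs. In Tim4+CD206hi KCs it was 5.45, 8.90 and 6.07 without and 7.53, 7.17 and 7.36 with tumour. In both subsets tumour-free replicate 2 was above and replicates 1 and 3 were below the tumour samples, and the mean differences were 0.61 and 0.54 (exact two-sided permutation p = 0.7 in each). In Tim4+CD206+ KCs it was higher with tumour in 2 of 3 same-numbered pairs (exact two-sided permutation of signs p = 0.75). In the *Id3* set the values were 6.09, 6.39 and 6.30 in *Id3f/f* and 6.29 and 6.29 in *Clec4fCreId3f/f* KCs (mean difference 0.03, exact two-sided permutation p = 1), the rises of both genes being of like size.

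**Figure D3:**
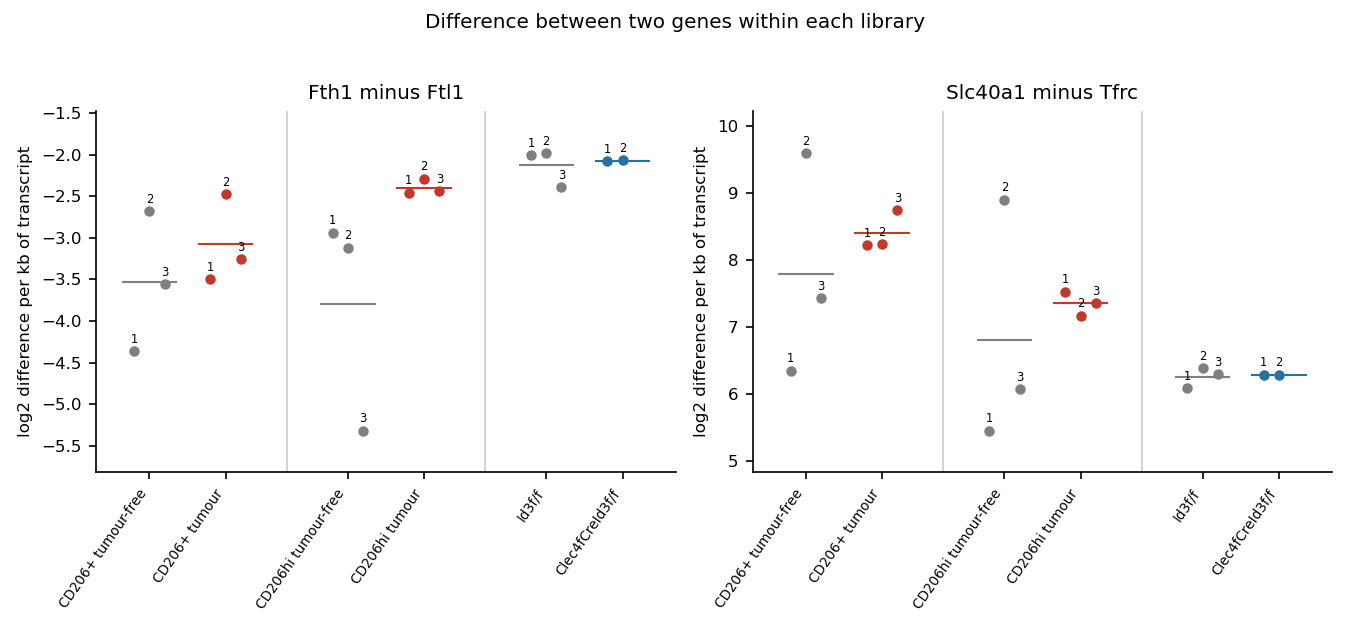
Difference in log2 level per kb of transcript (y axis) between *Fth1* and *Ftl1* (left) and between *Slc40a1* and *Tfrc* (right) in each library (points, with the replicate number) by group (x axis), with bars at group means. The tumour-free Tim4+CD206hi libraries spread from −5.32 to −2.94 on the left, and the 3 tumour libraries lie above them, between −2.46 and −2.29.

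Beyond the members, 6 lists of iron and haem genes were followed. The lists were chosen with earlier results of these data known, so that their shares of called genes are no test. In Tim4+CD206+ KCs, 1 of the 73 tested genes of all lists passed the test (1.37%, beside 3.54% of all genes): *Hrg*, the plasma histidine-rich glycoprotein that liver cells secrete, fell by 1.71 (limma adjusted p = 0.0144), beside hepatocyte markers of which 7 of 14 fell. The call was lost without tumour replicate 2 (adjusted p = 0.0592) or 3 (0.0717). The median log2 fold change was 0.20 over the 7 genes of haem and red cell uptake, and 0.13 over the 20 genes around BACH1 and NRF2, the repressor and activator of *Hmox1* and other redox genes, beside 0.02 over all genes.

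In Tim4+CD206hi KCs, 4 of 76 tested genes of the lists passed the test (5.26%, beside 7.23% of all genes). Here 3 of the 20 BACH1 and NRF2 genes rose, beside 5.21% of all genes, and none fell, beside 2.03%. The median log2 fold change of the 20 was 0.50 beside 0.03 over all genes tested. In the same libraries 11 of 11 tested epithelial tumour cell markers rose (median log2 fold change 4.83) and 5 of 12 neutrophil markers rose (median 1.97), and their part in these values was not tested. *Me1*, malic enzyme 1, was at 7.65, 7.70 and 5.85 without and at 9.84, 10.01 and 10.07 with tumour (log2 fold change 2.91, limma adjusted p = 0.0129). *Txnrd1*, thioredoxin reductase 1, rose by 1.53 (limma adjusted p = 0.00891). *Slc7a11*, the cystine and glutamate exchanger, rose by 1.48 (limma adjusted p = 0.0464), and the call was lost with either other filter, median centring or quantile normalization, or without tumour-free replicate 1 or any 1 tumour sample (adjusted p 0.0647 to 0.187). The call of *Me1* was lost without any 1 tumour sample (adjusted p 0.0586 to 0.0712), and that of *Txnrd1* without tumour replicate 1 or 2 (0.0619 and 0.0618). *Nqo1*, another NRF2 target, had a log2 fold change of −0.49 (limma adjusted p = 0.273). *Tmprss6*, the hepatocyte protease that restrains hepcidin, fell by 1.64 (limma adjusted p = 0.00365), beside 9 of 14 hepatocyte markers that fell. No gene of the lists for uptake, transferrin and metal import, storage, or haem synthesis passed the test in this subset. Their median log2 fold changes were 0.39, 0.68, 0.04 and 0.12, and that of the iron export and hepcidin list was −0.04. A higher median was thus not particular to the BACH1 and NRF2 genes.

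After *Id3* deletion 9 of 70 tested genes of these lists passed the test (12.9%, beside 6.44% of all genes). With lists chosen knowing earlier results of these data, this share is no test of the lists. Among the 6 measured genes of iron storage and its regulation 2 rose. *Aco1*, which encodes iron regulatory protein 1, was at 10.56, 10.60 and 10.34 in *Id3f/f* and at 11.05 and 11.16 in *Clec4fCreId3f/f* KCs (log2 fold change 0.60, limma adjusted p = 0.0138). *Ncoa4*, the receptor that takes ferritin to the autophagosome, was at 11.67, 11.91 and 11.60 against 12.29 and 12.26 (0.54, limma adjusted p = 0.0194). Both deleted samples were above every control in each gene. *Ireb2*, which encodes iron regulatory protein 2, had a log2 fold change of 0.08 (limma adjusted p = 0.723).

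In the list of iron export and hepcidin *Cp*, the ferroxidase ceruloplasmin, was at 9.19, 8.91 and 8.77 in *Id3f/f* and at 9.91 and 9.92 in *Clec4fCreId3f/f* KCs (log2 fold change 0.96, limma adjusted p = 0.00467). *Id1*, a BMP target and relative of *Id3*, fell by 0.72 (limma adjusted p = 0.00844), and *Hamp*, which encodes hepcidin, was listed at 0 in all 5 samples. Of the 19 measured BACH1 and NRF2 genes 2 rose and 3 fell. *Gsr*, glutathione reductase, rose by 0.71 (limma adjusted p = 0.00281). *Nfe2l2*, which encodes NRF2, was at 12.29, 12.56 and 12.41 against 11.77 and 11.76 and fell by 0.65 (limma adjusted p = 0.0073). *Prdx1*, a peroxiredoxin, fell by 0.66 (limma adjusted p = 0.0228) and *Gpx4*, the lipid peroxide reductase, by 0.45 (adjusted p = 0.0196). None of these 9 calls held without either *Clec4fCreId3f/f* library. The call of *Prdx1* was also lost without the variance trend (adjusted p = 0.0662), with quantile normalization (0.067) and without *Id3f/f* replicate 1 (0.0765) or 2 (0.0776). Without *Id3f/f* replicate 1 those of *Gpx4* (0.0737) and *Ncoa4* (0.0778) were lost too. The 11 measured genes of transferrin and metal import and the 18 of haem synthesis and breakdown had no call and median log2 fold changes of 0.00 and 0.01, as had all genes tested (0.00).

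**Figure D4:**
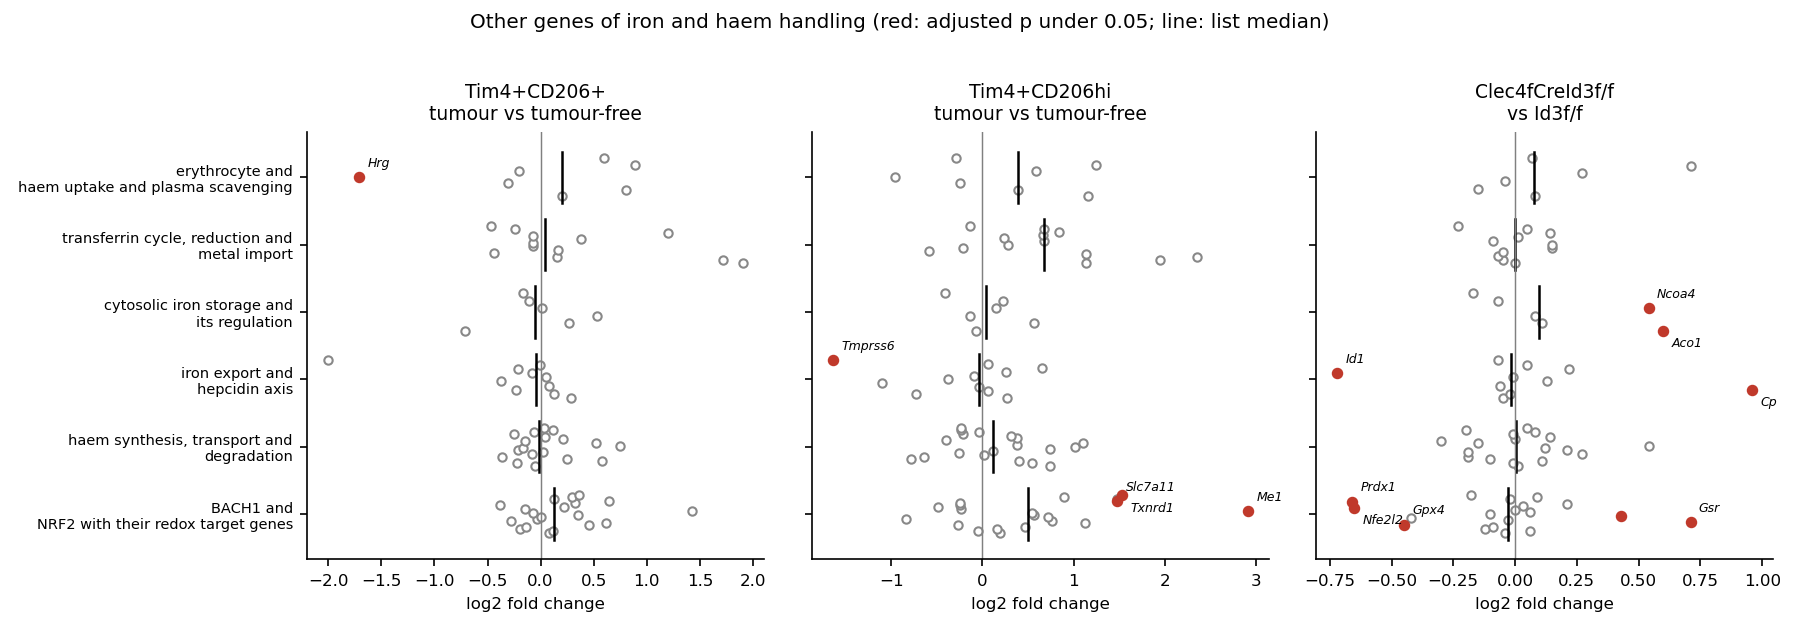
log2 fold change (x axis) of each measured gene (points) of 6 iron and haem lists (rows) in the 3 comparisons, red where the limma adjusted p is under 0.05 (names are given for those described in the text), with a line at the list's median. The x axes differ between panels. The genes in red number 1, 4 and 9 from left to right.

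Across the 12 libraries of the tumour tables, each gene being centred on its mean in its own table, some members moved together. These correlations describe libraries that share a scaling and are no test. *Fth1* and *Slc48a1* had a Pearson r of 0.94 (0.92 within Tim4+CD206+ and 0.96 within Tim4+CD206hi KCs), and 0.95 over the 10 libraries without tumour-free replicate 2. *Fth1* and *Spic* had an r of −0.90 (−0.72 and −0.96). Tumour-free replicate 3 of Tim4+CD206hi KCs held the lowest *Fth1* (14.31) and *Slc48a1* (11.71) values of its subset. It also held the highest of *Spic* (12.92) and *Hmox1* (16.11), and correlations without it were not computed. *Fth1* and *Tfrc* had an r of −0.65, and *Fth1* and *Ftl1*, the partner chains, one of −0.21.

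Of 13110 genes, those most like *Spic* over the same 12 libraries were *Cd82* (r = 0.96), *Clec4a3* (0.95) and *Gm10069* (0.95). Those most like *Hmox1* were *Ifi30*, *Qars* and *Csf2rb2* (0.96 each). Those most like *Slc40a1* were *Pnrc1* (0.97), *Gnas* (0.95) and *Smad1* (0.95), and the last 2 had an r of 0.83 and 0.84 without tumour-free replicate 2. In the RefSeq promoter windows (GRCm38) around the start of 7 members, 4 motifs were searched on both strands. The E-box letters CAGGTG were found for *Fth1* and *Tfrc*, against 20.2% of all windows. CAGCTG (16.3% of all windows), CACGTG (7.15%) and TGACNNNGC (12.4%) were found for none of the 7.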

How the data were processed

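Sorted KCs of the 17 samples were profiled by RNA-seq after SMART-Seq v4 amplification. According to the labels and methods, reads were aligned with STAR 2.7.10a to mm10, counted with HTSeq and normalized with DESeq2 by the authors. The deposited values are named as counts and TPM but are log2 values, with the features of a regularized log transformation made per table: genes at 0 are at 0 in all samples of a table (5764 to 8447 of 25124), and negative values occur. Regularization shrinks differences of low genes. Depth is not given in them.

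Genes with a value of at least log2 of 10 in 3 samples (2 in the *Id3* set) were tested within each table in limma 3.58.1 (R 4.3.3), the variance prior following the mean, and p-values were adjusted over all genes tested by the Benjamini-Hochberg method. Within-library differences were tested by exact permutation (scipy). Transcript lengths came from GENCODE M21 (GRCm38), since the files hold none. In simulated data 84 of 100 changes of 1 log2 unit were recovered in the *Id3* comparison (12833 genes), 23 in Tim4+CD206+ (13233 genes) and 18 in Tim4+CD206hi KCs (14561 genes). False calls made up 5.21%, 6.86% and 6.25% of the calls, in the same order. The simulated noise was independent and normal, with spreads shuffled among genes and no shift shared within a library. These shares therefore need not hold in the data. Deviations of same-numbered samples from group means correlated at 0.35, 0.56 and 0.15 in Tim4+CD206+ KCs. Those of differently numbered samples correlated at −0.53 to 0.30, with 0.30 and 0.16 between replicates 1 and 3. The numbers there were taken as pairs from these same data and not from a label, so that the pairing is uncertain.

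The members and lists were chosen with earlier results of these data known. Named beside the members were the called genes of each list, at most 3 in each direction (1 that was called is not reported here), the abundant markers, and the 3 genes most like *Spic*, *Hmox1* and *Slc40a1*. *Ireb2*, *Nqo1*, *Hamp*, *Slc4a1*, *Timd4*, *Adgre1*, *Clec4f*, *Folr2*, *Clec1b*, *Cd5l*, *Plac8* and *Ms4a4c* were named after their values were seen. *Hfe2* and *Fam132b*, older symbols, had no row. Alternatives were other filters, no trend, the replicate block, each library left out, median centring, quantile normalization and, chosen after seeing the data, removal of GC and length trends and permutation of signs within pairs.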

Additional observations from a re-analysis of the deposited data

How the results depend on the processing

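Of 380 member values under other settings 332 kept direction and call, 23 changed sign, 15 gained and 10 lost a call. Sign changes in Tim4+CD206+ KCs were *Hmox1* −0.04 (median centring), *Cd163* 0.04 (quantile normalization) and 0.03 (GC and length removed) and *Ftl1* −0.03 (GC and length removed). In Tim4+CD206hi KCs they were *Slc40a1* −0.14 (median centring) and −0.05 (GC and length removed) and *Slc11a1* 0.08 (quantile). In the *Id3* set they were *Slc11a1* 0.11 and *Fth1* minus *Ftl1* −0.15 (quantile) and *Spic* 0.05 (GC and length removed). With single libraries left out, ranges that crossed 0 were −0.19 to 0.17 for *Hmox1*, −0.26 to 0.24 for *Cd163* and −0.18 to 0.46 for *Slc48a1* in Tim4+CD206+ KCs, −0.15 to 0.25 for *Slc40a1* and −0.35 to 0.01 for *Ftl1* in Tim4+CD206hi KCs, and −0.04 to 0.21 for *Hmox1* and −0.07 to 0.06 for *Slc11a1* in the *Id3* set. *Slc40a1* minus *Tfrc* ranged from −0.12 to 1.51, −0.13 to 1.59 and −0.05 to 0.10 in the 3 sets, and *Fth1* minus *Ftl1* from 0.04 to 0.88 in Tim4+CD206+ KCs and from −0.08 to 0.13 in the *Id3* set. The cause was not tested.

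Genes called ranged with single libraries left out from 231 to 1032 in Tim4+CD206+ KCs, from 444 to 3633 in Tim4+CD206hi KCs and from 17 to 1850 in the *Id3* set, and members called from 0 to 3, 0 to 3 and 0 to 7. The replicate block gave 1026 genes in Tim4+CD206+ KCs. A mean of at least log2 of 50 gave 600 in Tim4+CD206hi KCs, and no filter 477 in the *Id3* set, where fewer or more genes were tested. In the *Id3* set the numbers are no pairs (correlations −0.07 and −0.10), and the replicate block gave 2089 genes and 7 members, with *Hmox1* at −0.04; *Id3f/f* replicate 3 has no partner and drops out of that fit. The block changed no other member's call. Unknown depth limits what low values can show.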
